A study of Mus musculus with 4 samples.

Results

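The connecting tubule cluster, named CNT by the authors, is 1 of 17 clusters of mouse kidney nuclei and was taken here as the single column of averages that carries that name. A separate column named DCT+CNT is another cluster and is not part of it. The CNT column holds unique molecular identifiers (UMIs, the counted RNA molecules) of 15664 of the 24468 listed genes. The nuclei came from kidney cortex with outer medulla of male C57BL/6 mice and were counted with a droplet 3' kit. The cisplatin group, Cis9w, received 4 weekly injections of 8 mg/kg cisplatin, a platinum chemotherapy drug, and kidneys were collected 9 weeks after the first injection; the other group, CT9w, was untreated. Each group has 2 samples. The columns carry no sample labels and the CNT column is not split by treatment, so no spread between samples and no effect of cisplatin in CNT could be computed, and every statement about CNT is a description of one pool of nuclei.

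The connecting tubule joins the distal convoluted tubule, which reabsorbs sodium chloride through the cotransporter NCC, to the collecting duct, whose principal cells reabsorb sodium through the epithelial channel ENaC and water through aquaporins. Its cells carry calcium from the tubule fluid to the blood by an apical channel, a buffering protein and a basolateral exchanger, and they answer to aldosterone through the mineralocorticoid receptor. In the mouse the change from distal convoluted tubule to connecting tubule and on to collecting duct is gradual, and single cells can carry transporters of neighbouring segments.

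The CNT column held 908581 UMIs, which is 2.52% of the 36068714 UMIs in the 17 columns and rank 12 by size, while DCT+CNT held 2277122, the principal cell cluster PC held 1061130, and the others ranged between 254460 and 7425098. Levels are normalised UMIs per nucleus, scaled by the authors so that each column sums to 2008, and 1 UMI in CNT is worth 0.00221. Ratios carry 95% counting intervals, which cover counting error only. Gene positions are those of GENCODE M21 on GRCm38, the assembly of the authors' build mm10. Counts of genes refer to the 12234 genes whose mean over the 17 columns was at or above its median, called genes at the floor below. Since the clusters were formed from these same genes, no cluster was tested against another.

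All 4 genes by which the cluster can be recognised were far above the 14 clusters other than DCT+CNT and PC, as the plot of levels by cluster shows. Slc8a1 (chr17:81373105-81738377, minus strand), the basolateral sodium-calcium exchanger, averaged 68.1 in CNT, against 57.2 in DCT+CNT, 13.1 in PC and 0.184 to 3.21 (median 0.983) in the other 14. It gave 3.39% of all CNT UMIs, more than any gene but Malat1, a nuclear noncoding RNA with 11.6%. CNT was thus 1.19-fold above DCT+CNT (1.17 to 1.21) and 5.19-fold above PC (5.05 to 5.33). Calb1 (chr4:15881264-15908064, plus strand), the calcium buffer calbindin-D28k, averaged 1.99 in CNT, against 2.18 in DCT+CNT, 0.863 in PC and 0.0249 to 0.158 in the other 14. For Calb1 the 2 clusters that carry CNT in their names were close, at a CNT over DCT+CNT ratio of 0.913 (0.845 to 0.986), and PC was lower. Scnn1b (chr7:121865038-121918514, plus strand), the beta subunit of ENaC, averaged 1.68 in CNT, against 0.332 in DCT+CNT, 2.05 in PC and 0.00553 to 0.239 in the other 14. Here CNT resembled PC instead, with a ratio of 0.822 to PC (0.748 to 0.903) and 5.07 to DCT+CNT (4.48 to 5.75).

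Trpv5 (chr6:41652173-41680769, minus strand), the apical calcium entry channel, averaged 0.608 in CNT, against 0.179 in DCT+CNT, 0.220 in PC and 0 to 0.0125 (median 0.00304) in the other 14. It was highest in CNT, 3.40-fold above DCT+CNT (2.82 to 4.09) and 2.77-fold above PC (2.22 to 3.47). The 2 clusters with no UMI of it, mixed-2 and the immune cells, had the fewest UMIs in all. Their upper limits were 0.0291 and 0.0204, so absence there is not shown. The summed level of the 4 genes was 72.4 in CNT, 59.9 in DCT+CNT, 16.3 in PC and 0.225 to 3.32 in the other 14. The label CNT therefore matches its markers, and the same genes were also present, at other proportions, in DCT+CNT and PC.

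**Figure D1:**
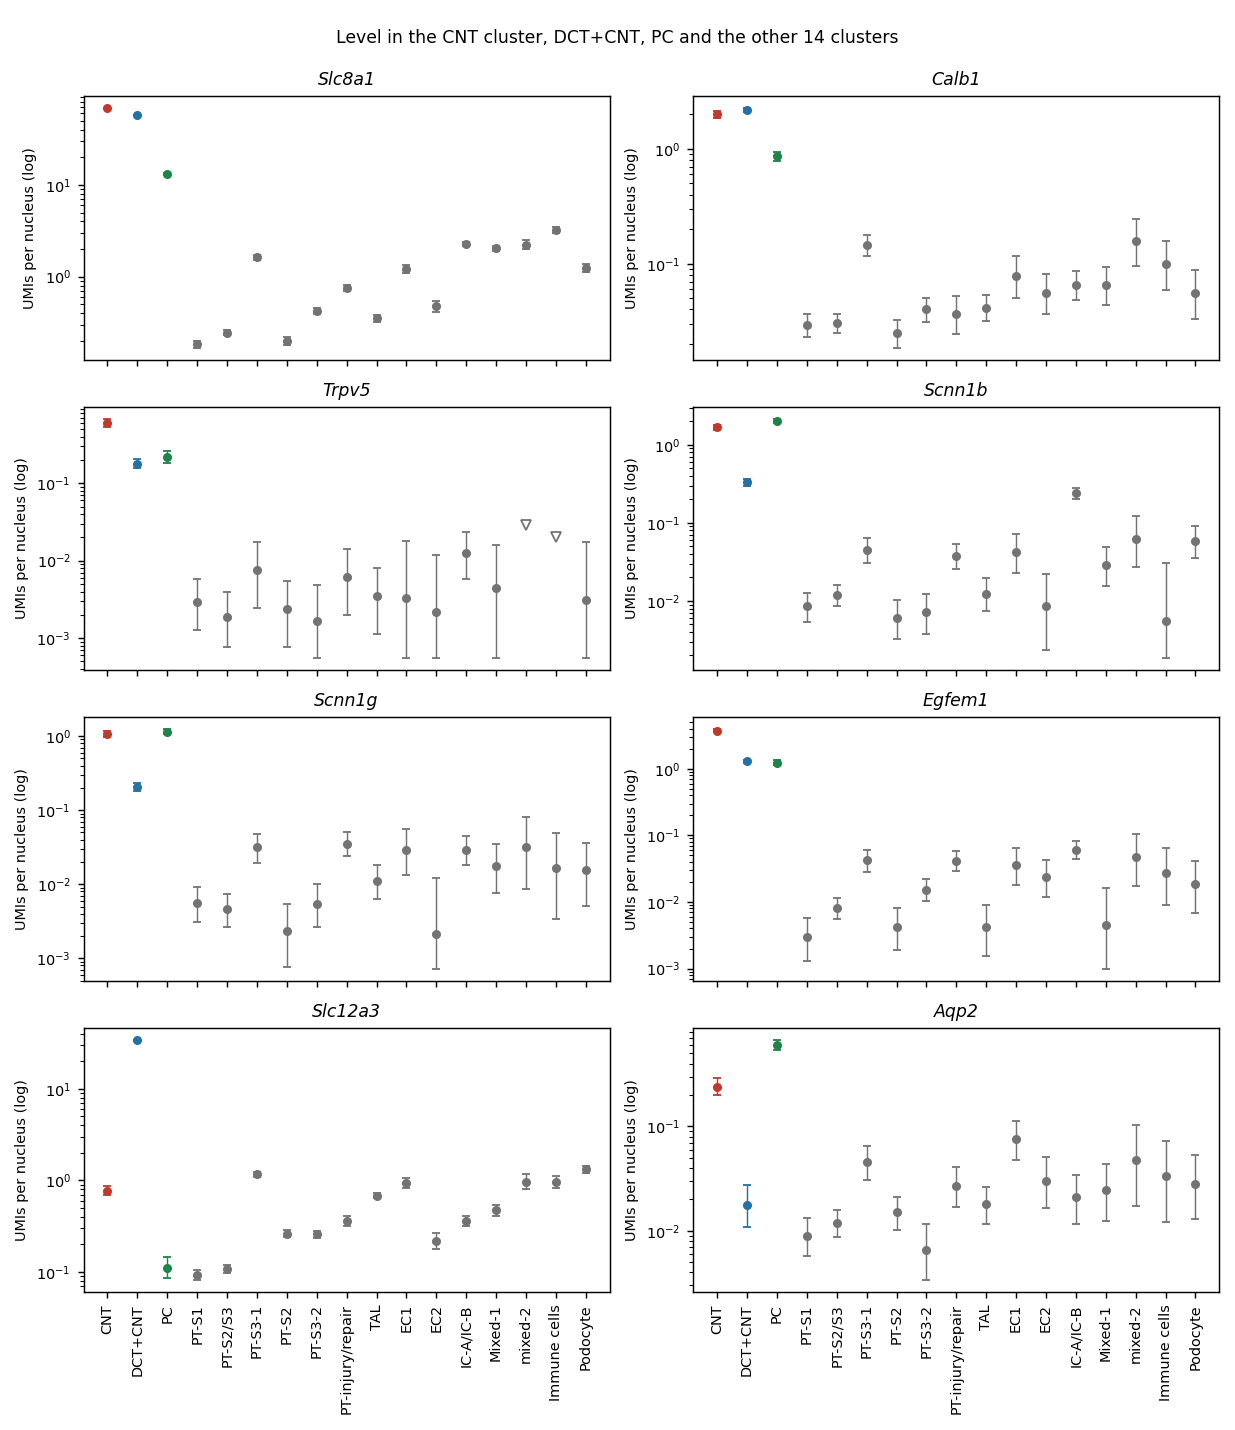
Level of 8 genes (normalised UMIs per nucleus, log axis, one panel a gene) in CNT (red), DCT+CNT (blue), PC (green) and the other 14 clusters (grey), with 95% counting intervals; an open triangle is the upper limit of a cluster with 0 UMIs, and long lower ends are cut short. Trpv5 and Egfem1 are highest in CNT at 0.608 and 3.73, while Slc12a3 is highest in DCT+CNT at 33.7 and Aqp2 in PC at 0.604.

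Few genes set CNT apart from every other cluster. Of the genes at the floor, 516 (4.22%) were highest in CNT by any margin, and 5 (0.0409%) were highest by at least 2-fold over each of the other 16 clusters. Those 5 were Egfem1, Trpv5, Sh3rf3 and the noncoding RNAs Gm26618 and Gm12474. By this count CNT ranked 14 of 17, with 429 such genes in the immune cells, 56 in PC, 32 in DCT+CNT and 0 in the proximal tubule cluster PT-S2. A cluster with 0 UMIs was set to 3 UMIs, worth 0.0237 in mixed-2, so genes of low level could not pass 2-fold there. The part of depth in this rank was not tested. When DCT+CNT and PC were taken out of the comparison, 109 genes were at least 2-fold above each of the remaining 14.

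Egfem1 (chr3:29082023-29691209, plus strand), which encodes a protein named for its EGF-like and EMI domains, averaged 3.73 in CNT, against 1.29 in DCT+CNT, 1.23 in PC and 0.00296 to 0.0612 (median 0.0212) in the other 14. It was 2.90-fold above DCT+CNT (2.70 to 3.11) and 3.02-fold above PC (2.76 to 3.32). Egfem1 and Trpv5 were the only 2 genes whose whole interval lay past 2-fold over all 16 clusters. The other 3 rested on fewer molecules: Gm26618 had 61 UMIs in CNT, Gm12474 had 45 and Sh3rf3, a scaffold protein with E3 ubiquitin ligase activity, had 28. Their ratios to the next cluster were 2.35 (1.63 to 3.39), 2.09 (1.37 to 3.16) and 2.04 (1.07 to 4.04), in that order.

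Below these came Slc2a9 (chr5:38349273-38503143, minus strand), the urate transporter GLUT9, at 1.85 in CNT, against 0.592 in DCT+CNT, 0.933 in PC and 0.0173 to 0.117 in the other 14. It was 3.13-fold above DCT+CNT (2.82 to 3.47) and 1.98-fold above PC (1.77 to 2.22), just short of the 2-fold limit. Scube3, a secreted protein with CUB and EGF-like domains, reached 0.128 in CNT, 0.0661 in DCT+CNT and 0.0435 in PC. Tmprss2, a serine protease of the apical membrane, averaged 0.961 in CNT, against 0.613 in DCT+CNT, 0.520 in PC and 0.0302 to 0.491 in the other 14. It was 1.57-fold above DCT+CNT (1.39 to 1.77) and 1.85-fold above PC (1.58 to 2.16).

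S100g, the small calcium buffer calbindin-D9k, averaged 0.572 in CNT, against 0.318 in DCT+CNT, 0.206 in PC and 0.0798 to 0.372 in the other 14, with the proximal cluster PT-S3-1 at the top of that range. Its excess over PT-S3-1 was 1.54-fold (1.29 to 1.84). S100g overlaps Ctps2, which lies on the opposite strand and stood at 0.356 in CNT. Counting by strand would keep the reads of such a pair apart, and whether it was done was not tested. The same holds for Gm26618 and Nudt11, on the opposite strand (0.0177 in CNT). Strand cannot part 2 genes on the same strand. Gm26618 overlaps AU022751 in this way, and Gm12474 overlaps Gm42868. Each of these partners stood at 0.00221 in CNT, against 0.135 for Gm26618 and 0.0995 for Gm12474. How reads shared by such pairs were assigned was not tested. The remaining 6 of the 15 leading genes by this ratio had 19 to 54 UMIs in CNT. Of these, Gm19705, a noncoding RNA, had the largest ratio, 1.85 over DCT+CNT (1.28 to 2.67), and Spred3, an inhibitor of Ras signalling, had 1.70 (0.898 to 3.16).

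Promoters are shown for Egfem1 and Trpv5, the pair that sets CNT apart, with the letters that a motif search matched in capitals. They are RefSeq promoters on GRCm38.p6, written 5′ to 3′ on the gene's strand. Egfem1 is given for the 250 bases before its start, chr3:29081537-29081786, plus strand, with a TFAP2 motif whose first base lies 109 bases before the start. Trpv5 is given for the bases 250 to 46 before its RefSeq start, chr6:41680769-41680973, minus strand. Its GATA motif has its first base 51 bases before that start. The 46 bases nearest that start lie in an annotated exon, and the last base of the motif is the 1 exon base printed.
Egfem1: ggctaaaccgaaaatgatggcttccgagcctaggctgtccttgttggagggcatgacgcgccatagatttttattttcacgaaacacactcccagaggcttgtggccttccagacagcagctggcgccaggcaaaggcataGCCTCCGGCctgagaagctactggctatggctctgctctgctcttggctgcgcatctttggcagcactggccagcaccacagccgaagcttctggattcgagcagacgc
Trpv5: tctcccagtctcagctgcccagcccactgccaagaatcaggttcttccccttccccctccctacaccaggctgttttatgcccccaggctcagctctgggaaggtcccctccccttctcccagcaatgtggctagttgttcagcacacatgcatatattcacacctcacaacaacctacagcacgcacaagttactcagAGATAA
The search covered both strands of the 250 bases before each start for 14 of the 15 leading genes, the number found among 27025 RefSeq promoters. The TFAP2 motif GCCNNNGGC was found before Egfem1, Gm12474 and Sh3rf3, and before 13.6% of all promoters. The GATA motif AGATAA was found before Spred3 and Trpv5, and before 10.3% of all. AGAACA, bound by steroid receptors, was found before Gm26618 and Impg2 and before 16.2% of all, and AAGGTCA, bound by ESRR factors, before S100g and 4.05% of all. No leading gene held the GRHL motif AACCNGTT (1.71% of all promoters) or the HNF1 motif GTTAAT (6.52%). A match marks letters in a window and not a bound site.

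CNT was most like its anatomical neighbours. Across the 12234 genes at the floor, the Pearson correlation of log2 levels with CNT was 0.937 for PC and 0.930 for DCT+CNT. The thick ascending limb (TAL) followed with 0.871 and the intercalated cells (IC-A/IC-B) with 0.862. The values then fell off to 0.785 in PT-injury/repair and 0.585 in the immune cells. These are descriptions across genes, which are not independent, and the columns differ in depth: the immune cells had 363369 UMIs, and the part of depth in their value was not tested.

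Of 11444 genes with a ratio to DCT+CNT, 901 (7.87%) were at least 2-fold higher in CNT and 729 (6.37%) at least 2-fold lower. Of 11162 genes with a ratio to PC, 742 (6.65%) were at least 2-fold higher in CNT and 877 (7.86%) at least 2-fold lower. The rest were within 2-fold, 9814 genes (85.8%) for DCT+CNT and 9543 (85.5%) for PC. The counting interval also left out a ratio of 1 for 648 and 417 of the genes set against DCT+CNT, higher and lower, and for 355 and 474 of those set against PC. The median gene was at a log2 ratio of 0.08 to DCT+CNT and -0.04 to PC.

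DCT+CNT and PC differed from each other by at least 2-fold at 1981 genes, and CNT lay between them, ends included, at 1603 of these (80.9%). Among the 1184 genes higher in PC than in DCT+CNT, 963 (81.3%) were between, and 663 (56.0%) were nearer PC than DCT+CNT on the log2 scale. Among the 797 genes higher in DCT+CNT than in PC, 640 (80.3%) were between, and 410 (51.4%) were nearer PC. With DCT+CNT at 0 and PC at 1, the median position of CNT was 0.546, as the histogram of positions shows. CNT was at neither end for most genes: 204 lay below 0, 174 above 1, 45 exactly at 0 and 34 exactly at 1. Levels under 0.00663 were raised to it, which sets CNT equal to a neighbour where both are that low. Genes exactly at an end count as between. At 621 genes that differed by at least 4-fold between DCT+CNT and PC, 559 (90.0%) had CNT between. The genes were picked for a wide gap between DCT+CNT and PC, counting error included, and a wider gap leaves more room between. Whether another cluster would lie between as often was not tested, so these shares do not by themselves show that CNT is intermediate.

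**Figure D2:**
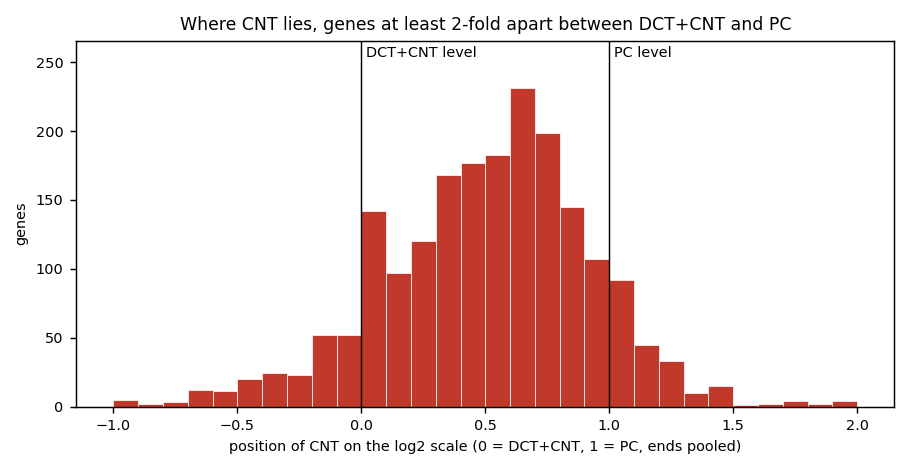
Number of genes (vertical axis) by the position of CNT between DCT+CNT (0) and PC (1) on the log2 scale (horizontal axis, in bins of 0.1 with genes beyond the axis pooled in the end bins), for the 1981 genes at least 2-fold apart between those clusters. The distribution has its median at 0.546 and one broad peak between the 2 lines, with a smaller excess in the bin from 0 to 0.1 that holds the 45 genes exactly at 0.

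The genes furthest above DCT+CNT in CNT were higher still in PC. Kif26b, a kinesin family member needed for kidney development in the mouse, averaged 1.19 in CNT, against 0.0300 in DCT+CNT, 2.81 in PC and at most 0.220 in the other 14. It was 39.7-fold above DCT+CNT (28.0 to 57.9) and 2.36-fold below PC (2.14 to 2.61). Gpc5, a heparan sulfate proteoglycan of the cell surface, averaged 1.36 in CNT, 0.0406 in DCT+CNT, 1.67 in PC and at most 0.414 in the other 14, which put CNT 33.5-fold above DCT+CNT (24.8 to 46.2). Col26a1, a collagen, was 36.6-fold higher (19.3 to 77.9) and Kcne1, the accessory subunit of the potassium channel Kcnq1, 34.6-fold (14.1 to 110). All 8 genes with the largest ratios to DCT+CNT, which also include Tmem150c, Prr5l, Gcnt4 and Pak3, were lower in CNT than in PC by point value, with ratios to PC between 0.117 for Pak3 and 0.823 for Prr5l. Gcnt4 and Pak3 had 11 UMIs each in CNT and 1 each in DCT+CNT, so their 27.6-fold ratios have wide intervals (4.01 to 1187).

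The 8 genes furthest below DCT+CNT were lower in PC than in DCT+CNT too. Fgf13, which encodes an intracellular partner of voltage-gated sodium channels, had 2 UMIs in CNT (0.00442), against 0.548 in DCT+CNT and 0.00757 in PC, a 124-fold difference from DCT+CNT with an interval of 34.2 to 1025. Uroc1, an enzyme of histidine breakdown, had 3 UMIs in CNT (0.00663), against 0.364 in DCT+CNT and 0.0114 in PC. Ank2, an ankyrin that anchors membrane proteins to the cytoskeleton, had 0.0111 in CNT, 0.433 in DCT+CNT and 0.00378 in PC, and Stk32b, a kinase, 0.0265, 0.911 and 0.0303. The others were Slc12a3, Syn2, Gm42697 and Gm13052. Of these 8, Slc12a3 is the only one with more than 12 UMIs in CNT.

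The 8 genes furthest above PC were present in DCT+CNT. Malrd1, which carries MAM and LDL receptor domains, averaged 0.431 in CNT, against 0.671 in DCT+CNT, 0.0189 in PC and 4.15 in IC-A/IC-B, a 22.8-fold excess over PC (12.1 to 48.2). Abca13, a large ABC transporter, averaged 1.68 in CNT, against 22.7 in DCT+CNT and 0.136 in PC, so CNT was 13.5-fold below DCT+CNT (12.6 to 14.6) and 12.3-fold above PC (9.65 to 15.9). The level of Abca13 in TAL was 6.70 and the median of the other 14 was 0.370. Sall3, a zinc finger transcription factor, averaged 0.139 in CNT, 0.389 in DCT+CNT and 0.0114 in PC, and was 12.3-fold above PC (5.33 to 34.7). Pigo, Etv1, Hectd2, Hoxd10 and Cwh43 complete the 8 highest over PC, each with 1 to 3 UMIs in PC and ratios of 13.2 to 17.5, whose intervals are wide (2.70 to 737 for Pigo, 4.16 to 67.4 for Cwh43).

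The genes furthest below PC had at most 10 UMIs in CNT. Dab1, an adaptor of reelin signalling in neurons, had 4 UMIs in CNT (0.00884), against 0.00970 in DCT+CNT and 0.537 in PC, a 60.8-fold difference from PC (23.5 to 225). Mcoln3, a cation channel of endosomes and lysosomes, had 6 UMIs in CNT (0.0133), against 0.000882 in DCT+CNT and 0.354 in PC, and was 26.7-fold lower than PC (12.0 to 73.6). Il1rapl1, a synaptic protein in neurons, had 6 UMIs in CNT and was 44.4-fold lower than PC (20.2 to 122). Chst9, Slco4c1, Gm39075 and C130071C03Rik were 23.1-fold to 26.5-fold lower.

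**Figure D3:**
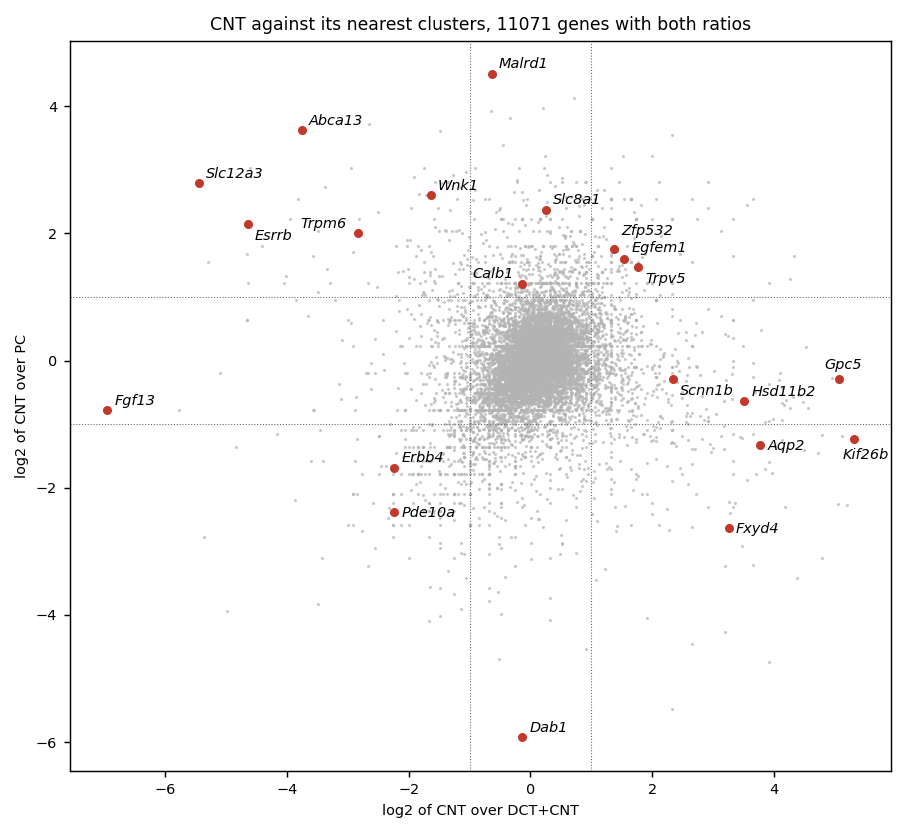
Log2 ratio of CNT over DCT+CNT (horizontal) and of CNT over PC (vertical) for the 11071 genes with both ratios (grey points), with named genes in red and dotted lines at 2-fold. Slc12a3 and Fgf13 lie far left, Kif26b and Gpc5 far right, and Egfem1, Trpv5 and Zfp532 beyond 2-fold on both axes.

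At 147 genes (1.33% of 11071) CNT was at least 2-fold above both DCT+CNT and PC, and at 224 (2.02%) at least 2-fold below both. Both counting intervals lay past 2-fold for 3 of the 147 and 7 of the 224, which are named here after their values were seen. Above both, besides Egfem1 and Trpv5, was Zfp532, a zinc finger protein, at 0.535 in CNT, against 0.206 in DCT+CNT, 0.159 in PC and 0.398 in Mixed-1, the highest of the other 14. It was 2.59-fold above DCT+CNT (2.16 to 3.12) and 3.36-fold above PC (2.61 to 4.37).

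Below both, Erbb4, the neuregulin receptor, averaged 0.667 in CNT, against 3.15 in DCT+CNT, 2.15 in PC and 0.178 to 23.7 in the other 14, with TAL highest. CNT was 4.72-fold below DCT+CNT (4.20 to 5.33) and 3.22-fold below PC (2.83 to 3.67) for Erbb4. Pde10a, a phosphodiesterase that breaks down cyclic AMP and cyclic GMP, averaged 0.263 in CNT, against 1.24 in DCT+CNT and 1.36 in PC, a 4.73-fold (3.92 to 5.75) and 5.19-fold (4.27 to 6.35) difference. Ptgfr, the receptor of prostaglandin F2 alpha, averaged 0.141 in CNT, against 0.655 in DCT+CNT, 0.386 in PC and at most 0.128 in the other 14. It was 4.63-fold below DCT+CNT (3.59 to 6.08) and 2.73-fold below PC (2.05 to 3.67). Dnm3, a dynamin of membrane fission, was 3.40-fold (2.76 to 4.22) and 4.32-fold lower (3.48 to 5.40), and Gpc3, Plxna4 and Syn2 had 6, 4 and 1 UMIs in CNT. For these genes CNT did not lie between its neighbours.

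Of 14 genes of calcium transport at the floor, most were higher in CNT than in PC. Against DCT+CNT, 2 of the 14 were at least 2-fold higher (7.87% of all genes were), 1 lower (6.37%) and 11 within 2-fold (85.8%), and the median log2 ratio was -0.04 against 0.08 for all genes. Against PC, 10 were at least 2-fold higher (6.65% of all genes were), 1 lower (7.86%) and 3 within 2-fold (85.5%), with a median of 1.45 against -0.04. The 10 include Slc8a1, Trpv5 and Calb1, by which the cluster was recognised, so this count is not independent of the markers. Of the 14, 5 had their highest level of the 17 clusters in CNT, namely Slc8a1, Trpv5, S100g, Kl and Klk1. Kl, or klotho, a membrane protein that acts with fibroblast growth factor receptors and on Trpv5, averaged 2.27 in CNT, against 1.71 in DCT+CNT, 0.956 in PC and 0.0715 to 0.727 in the other 14. It was 1.33-fold above DCT+CNT (1.23 to 1.43) and 2.37-fold above PC (2.13 to 2.64). Klk1, or tissue kallikrein, a protease that the connecting tubule releases into the urine, averaged 0.541 in CNT, against 0.361 in DCT+CNT, 0.161 in PC and 0.0889 to 0.423 in the other 14.

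The calcium pumps of the plasma membrane differed among themselves. Atp2b2 averaged 0.895 in CNT, against 0.148 in DCT+CNT, 0.961 in PC and at most 0.0570 in the other 14, so that CNT was 6.04-fold above DCT+CNT (5.03 to 7.28) and near PC at 0.931 (0.815 to 1.06). Atp2b4 averaged 0.298 in CNT, against 0.347 in DCT+CNT, 0.0416 in PC and at most 0.332 in the other 14, so that CNT was 7.17-fold above PC (4.54 to 11.8) and near DCT+CNT. Atp2b1 averaged 0.296 in CNT, 0.352 in DCT+CNT, 0.274 in PC and 0.147 to 1.13 in the other 14, and CNT ranked 11 of 17. Thus of the pumps Atp2b2 followed PC, Atp2b4 followed DCT+CNT, and Atp2b1 did not separate the 3.

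Among the regulators, Vdr, the vitamin D receptor, averaged 0.970 in CNT, 1.09 in DCT+CNT and 0.286 in PC, and CNT was 3.40-fold above PC (2.82 to 4.11). Pth1r, the parathyroid hormone receptor, averaged 0.146 in CNT, 0.157 in DCT+CNT, 0.0511 in PC and 0.0409 to 0.446 in the other 14. The level of Pth1r in CNT was under the median of the other 14, 0.197, and the part of free RNA of other cells in it was not tested. Trpv6, the close relative of Trpv5, was under the floor and had 2 UMIs in CNT, 11 in DCT+CNT and 22 in PC, and so was lower in CNT than in PC (9.42-fold, 2.32 to 82.6). Stim1, the calcium sensor of the endoplasmic reticulum, averaged 0.0265 in CNT, 0.0265 in DCT+CNT and 0.231 in PC, and was 8.71-fold below PC (4.81 to 17.3).

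The beta and gamma subunits of ENaC were near the PC level in CNT and far above DCT+CNT. Of 18 genes of sodium transport through ENaC at the floor, 16 were within 2-fold of PC, 1 higher and 1 lower, which is close to the 85.5%, 6.65% and 7.86% of all genes, and the median log2 ratio was -0.15. Against DCT+CNT, 5 were higher (7.87% of all genes were), 1 lower (6.37%) and 12 within 2-fold (85.8%), with a median of 0.51. The 5 include Scnn1b, a gene by which the cluster was recognised. Scnn1g (chr7:121734479-121768475, plus strand), the gamma subunit, averaged 1.08 in CNT, against 0.207 in DCT+CNT, 1.14 in PC and at most 0.0354 in the other 14. It was 5.22-fold above DCT+CNT (4.45 to 6.12), and its ratio to PC was 0.947 (0.839 to 1.07). Scnn1a, the alpha subunit, averaged 0.358 in CNT, 0.294 in DCT+CNT and 0.430 in PC, so the ratio to DCT+CNT was 1.22 (1.00 to 1.48), well under those of the beta and gamma subunits.

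Hsd11b2, the enzyme that inactivates glucocorticoids and leaves the mineralocorticoid receptor to aldosterone, averaged 0.462 in CNT, against 0.0406 in DCT+CNT, 0.719 in PC and 0.0124 to 0.0521 in the other 14. DCT+CNT lay within the range of the other 14 and CNT 11.4-fold above it (8.24 to 16). Nr3c2, the mineralocorticoid receptor, averaged 6.12 in CNT, 3.69 in DCT+CNT, 6.83 in PC and 0.258 to 3.56 in the other 14. Sgk1, a kinase induced by aldosterone, averaged 0.0619 in CNT, 0.00617 in DCT+CNT, 0.138 in PC and up to 0.290 in the other 14, with EC1 highest. Nedd4l, the ubiquitin ligase that removes ENaC from the membrane, averaged 2.70 in CNT, 1.36 in DCT+CNT and 3.96 in PC. All 4 of these aldosterone-related genes had the same order, with PC above CNT and CNT above DCT+CNT. They do not stand for the whole list. Wnk1 and Sgk3, from the same list, had the reverse order, Wnk1 with 12.1 in DCT+CNT, 3.90 in CNT and 0.643 in PC.

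**Figure D4:**
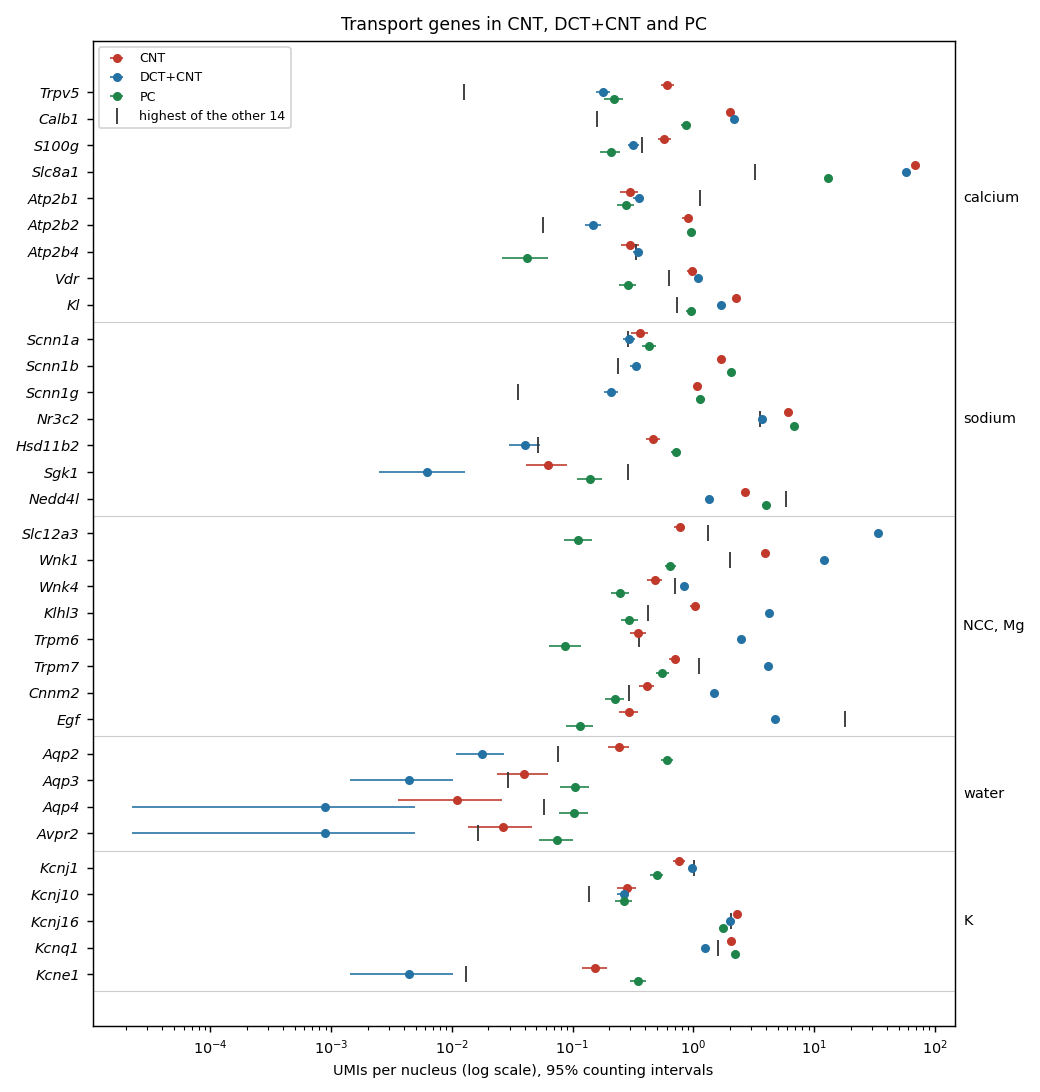
Levels of 33 transport genes (normalised UMIs per nucleus, log axis, rows grouped by transported ion or water) in CNT (red), DCT+CNT (blue) and PC (green), with 95% counting intervals, and the highest level of the other 14 clusters (black tick). The CNT point sits by the DCT+CNT point for Slc8a1 and Calb1, by the PC point for Scnn1b, Scnn1g and Atp2b2, and between them for Klhl3 and Aqp2.

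The program of the distal convoluted tubule was lower in CNT than in DCT+CNT. Of 9 markers of that segment at the floor, 8 were at least 2-fold lower (6.37% of all genes were) and 0 higher, with a median log2 ratio of -1.80; 8 of the same 9 were at least 2-fold higher than in PC (6.65%), with a median of 1.81. Slc12a3 (chr8:94329201-94366214, plus strand), which encodes NCC, averaged 0.771 in CNT, against 33.7 in DCT+CNT, 0.112 in PC and 0.0937 to 1.31 (median 0.416) in the other 14. It was 43.7-fold below DCT+CNT (39.3 to 48.7) and 6.91-fold above PC (5.23 to 9.27). Its level in CNT lay inside the range of clusters that should lack NCC, among them podocytes at 1.31, and ranked 7 of 17. The part of free RNA of other cells in this level was not tested. Klhl3, part of a ubiquitin ligase that degrades WNK kinases, averaged 1.03 in CNT, 4.22 in DCT+CNT, 0.295 in PC and at most 0.420 in the other 14. Wnk1, a kinase upstream of NCC, averaged 3.90 in CNT, 12.1 in DCT+CNT, 0.643 in PC and at most 2.02 in the other 14. Unlike Slc12a3, both were above all of the other 14 in CNT, at ratios to PC of 3.50 (2.91 to 4.22) for Klhl3 and 6.06 (5.39 to 6.82) for Wnk1.

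Sgms2, a sphingomyelin synthase, had the same order, with 1.30 in CNT, 4.53 in DCT+CNT, 0.392 in PC and at most 0.645 in the other 14. Cnnm2, a protein of magnesium transport, averaged 0.411 in CNT, 1.47 in DCT+CNT and 0.223 in PC. Trpm6, the apical magnesium channel, averaged 0.349 in CNT, against 2.49 in DCT+CNT, 0.0870 in PC and at most 0.353 in the other 14, and its partner Trpm7 averaged 0.698, 4.12 and 0.554. CNT was 7.14-fold below DCT+CNT for Trpm6 (6.08 to 8.44) and 5.90-fold for Trpm7 (5.26 to 6.63). Egf, whose product stimulates Trpm6, averaged 0.292 in CNT, 4.74 in DCT+CNT, 0.115 in PC and 18.1 in TAL. Of 11 magnesium genes at the floor, 6 were at least 2-fold lower in CNT than in DCT+CNT (6.37% of all genes were) and 0 higher (7.87%), and 3 were higher (6.65%) and 1 lower (7.86%) than in PC. The summed level of the 10 listed markers of the distal convoluted tubule was 8.68 in CNT, 61.0 in DCT+CNT, 2.14 in PC and 1.82 to 7.70 in the other 14, with TAL highest.

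Markers of principal cells were present in CNT below the PC level. Of 8 at the floor, 7 were at least 2-fold higher than in DCT+CNT (7.87% of all genes were) and 7 at least 2-fold lower than in PC (7.86% of all genes were), with median log2 ratios of 3.45 and -1.49. Aqp2 (chr15:99579055-99584547, plus strand), the vasopressin-regulated water channel, averaged 0.241 in CNT, against 0.0176 in DCT+CNT, 0.604 in PC and 0.00659 to 0.0749 (median 0.0257) in the other 14. It was 13.7-fold above DCT+CNT (8.43 to 23.2), where its level lay within the range of the other 14, and 2.51-fold below PC (2.01 to 3.14). Aqp3, the basolateral water channel, had 18 UMIs in CNT (0.0398), 5 in DCT+CNT (0.00441) and 55 in PC (0.104). Avpr2, the vasopressin receptor, had 12 in CNT, 1 in DCT+CNT and 39 in PC. Fxyd4, a sodium pump regulator of the collecting duct, averaged 0.135 in CNT, 0.0141 in DCT+CNT and 0.835 in PC, and so was further below PC than Aqp2, at 6.19-fold (4.73 to 8.23). Aqp4 had 5 UMIs in CNT, 1 in DCT+CNT and 54 in PC.

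Apela, a peptide hormone, averaged 0.159 in CNT, 0.0106 in DCT+CNT, 0.481 in PC and at most 0.133 in the other 14. Npnt, an extracellular matrix protein, averaged 0.497 in CNT, 0.208 in DCT+CNT and 1.63 in PC. The summed level of the 10 listed principal cell markers was 1.66 in CNT, 0.481 in DCT+CNT, 4.77 in PC and 0.123 to 1.07 in the other 14. Whether each CNT nucleus carried such genes at a low level or a part of the pool carried them at the PC level was not tested, since the files hold one average for the cluster.

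Of 15 potassium channel genes at the floor, 13 had a ratio to each neighbour. Against DCT+CNT, 1 was at least 2-fold higher in CNT, Kcne1, 2 were lower, Kcnn2 and Kcnip4, and 10 were within 2-fold, where all genes had 7.87%, 6.37% and 85.8%. Against PC, 0 were higher, 1 was lower, again Kcne1, and 12 were within 2-fold, where all genes had 6.65%, 7.86% and 85.5%. Kcnj1, the secretory channel ROMK, averaged 0.760 in CNT, 0.980 in DCT+CNT and 0.498 in PC. Kcnj16 and Kcnj10, which form a basolateral channel together, were highest in CNT by small margins: Kcnj16 at 2.31 in CNT, 2.00 in DCT+CNT and 1.75 in PC, and Kcnj10 at 0.281, 0.264 and 0.265. The intervals of Kcnj10 included equality with both (0.858 to 1.31 and 0.827 to 1.36). Kcnq1 averaged 2.04 in CNT, 1.26 in DCT+CNT and 2.22 in PC, whereas its subunit Kcne1 averaged 0.152, 0.00441 and 0.348, so the pair differed in how they parted CNT from DCT+CNT. Kcnma1, the large-conductance channel of flow-induced potassium secretion, had 6 UMIs in CNT, 11 in DCT+CNT and 5 in PC, all below the lowest of the other 14, 0.0181.

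Of 37 transcription factors at the floor, 2 had no ratio to DCT+CNT and 3 had none to PC. Against DCT+CNT, 6 were at least 2-fold higher in CNT (7.87% of all genes were) and 5 lower (6.37%). Against PC, 6 were higher (6.65%) and 2 lower (7.86%). Gata2, Gata3 and Ehf were each lowest in DCT+CNT of the 3 clusters. Gata2, a factor of collecting duct cells, averaged 0.236 in CNT, against 0.0238 in DCT+CNT, 0.358 in PC and at most 0.0912 in the other 14, which was 9.93-fold above DCT+CNT (6.46 to 15.8). Ehf, an ETS factor of epithelia, averaged 0.431 in CNT, 0.0300 in DCT+CNT, 0.840 in PC and at most 0.197 in the other 14, 14.4-fold above DCT+CNT (9.95 to 21.3). Gata3 averaged 0.398 in CNT, 0.220 in DCT+CNT and 0.545 in PC, a smaller step of 1.81-fold (1.49 to 2.20).

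Esrrb, an orphan nuclear receptor, averaged 0.0420 in CNT, against 1.05 in DCT+CNT, 0.00946 in PC and 1.31 in TAL, and CNT was 25-fold below DCT+CNT (16 to 41.7). Prox1, a homeobox factor, had 4 UMIs in CNT, 254 in DCT+CNT and 0 in PC. Emx1, another, averaged 0.325 in CNT, 0.534 in DCT+CNT, 0.159 in PC and at most 0.0737 in the other 14. Sall3 and Emx1 were thus present in CNT above the other 14, whereas Esrrb and Prox1 were not, the median of the other 14 being 0.0458 for Esrrb and 0.0125 for Prox1. Tfap2b, a factor needed for distal tubule development in the mouse, averaged 0.670 in CNT, 0.683 in DCT+CNT and 0.566 in PC, and Mecom averaged 11.8, 13.5 and 12.9, so neither parted the 3 clusters by 2-fold.

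Among acid-base genes, both ammonia transporters were higher in CNT than in DCT+CNT. Of 17 at the floor, 1 had no ratio to DCT+CNT and 1 had none to PC. Against DCT+CNT, 6 were at least 2-fold higher in CNT (7.87% of all genes were) and 1 lower (6.37%). Against PC, 5 were higher (6.65%) and 3 lower (7.86%). Rhcg, the apical ammonia transporter, averaged 1.52 in CNT, against 0.453 in DCT+CNT, 2.00 in PC and at most 0.910 in the other 14, in IC-A/IC-B. Rhbg, its basolateral relative, averaged 0.177 in CNT, 0.0194 in DCT+CNT, 0.132 in PC and 0.211 in IC-A/IC-B, and was 9.11-fold above DCT+CNT (5.63 to 15.3). Car12, a carbonic anhydrase of the cell surface, averaged 0.305 in CNT, 0.140 in DCT+CNT, 0.0795 in PC and 3.66 in IC-A/IC-B. Slc9a4, a sodium-proton exchanger, had 31 UMIs in CNT, 6 in DCT+CNT and 51 in PC. Of 13 intercalated cell markers at the floor, 2 had no ratio to DCT+CNT and 5 had none to PC. Against DCT+CNT, 2 were at least 2-fold higher in CNT (7.87% of all genes were) and 2 lower (6.37%). Against PC, 5 were higher (6.65%) and 0 lower (7.86%), with a median log2 ratio of 1.68. Slc4a9, a bicarbonate transporter of these cells, had 39 UMIs in CNT (0.0862), against 0.0794 in DCT+CNT, 0.0189 in PC and up to 6.74 in the other 14, and was 4.55-fold above PC (2.23 to 10.2). Atp6v0d2, a subunit of the proton pump, had 23 UMIs in CNT (0.0508), against 0.0291 in DCT+CNT, 0.00946 in PC and up to 3.68 in the other 14, and was 5.37-fold above PC (2.00 to 18.1). Slc26a4, or pendrin, had 6 UMIs in CNT (0.0133), under the median of the other 14, 0.0389, with 9.13 in IC-A/IC-B, and Slc4a1 had 4 UMIs in CNT. All 14 listed intercalated cell markers had a UMI in CNT, and they summed to 1.75 in CNT, 0.698 in DCT+CNT, 2.07 in PC and 0.0675 to 28.0 in the other 14, with Rhcg the greater part in CNT.

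Of 35 receptor genes at the floor, 3 had no ratio to DCT+CNT and 9 had none to PC. Against DCT+CNT, 3 were at least 2-fold higher in CNT (7.87% of all genes were) and 6 lower (6.37%). Against PC, 6 were higher (6.65%) and 5 lower (7.86%). Ednrb, the endothelin B receptor, averaged 0.0972 in CNT, 0.00705 in DCT+CNT, 0.0700 in PC and 0.541 in EC2. Ptger1, a prostaglandin E2 receptor, averaged 0.0376 in CNT, 0.00794 in DCT+CNT and 0.189 in PC, 5.04-fold below PC (2.99 to 8.99). Egfr averaged 0.274 in CNT, 0.252 in DCT+CNT, 0.831 in PC and 0.0668 to 1.53 in the other 14, and was 3.03-fold below PC (2.48 to 3.73). Adrb1, the beta-1 adrenergic receptor, had 3 UMIs in CNT, 97 in DCT+CNT and 0 in PC. Of 14 Notch pathway genes, 3 were higher than in DCT+CNT (7.87% of all genes were), 0 lower (6.37%), and 11 of the 11 with a ratio were within 2-fold of PC, where 85.5% of all genes were. Hes1, a target of Notch, averaged 0.179 in CNT, 0.0635 in DCT+CNT and 0.242 in PC, and Notch2 0.290, 0.138 and 0.456.

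The marker sums given here for other cell types were each lower in CNT than the median of the other 14 clusters. For TAL and podocyte markers they were close to that median, which was 2.18 and 2.22. The 10 proximal tubule markers were all within 2-fold of both DCT+CNT and PC, and summed to 2.51 in CNT, 2.34 in DCT+CNT, 2.41 in PC and 2.71 to 37.8 in the other 14. Kap, an androgen-regulated gene of proximal tubule, averaged 0.981 in CNT, 1.09 in DCT+CNT and 1.26 in PC. TAL markers summed to 2.17 in CNT, 4.32 in DCT+CNT, 0.785 in PC and up to 53.9 in TAL. Podocyte markers summed to 2.05 in CNT, 3.47 in DCT+CNT, 3.78 in PC and 0.320 to 129 in the other 14, with Synpo at 0 UMIs in CNT. Endothelial markers summed to 0.221 in CNT, 0.195 in DCT+CNT and 0.163 in PC. Stromal markers summed to 0.0398 in CNT and immune markers to 0.0354, with Pdgfrb, Acta2, Itgam, Cd3e, Lyz2 and Ms4a1 at 0 UMIs. Markers of the injured proximal tubule summed to 0.113, of the thin limb to 0.0774, of cycling cells to 0.00884 and of the urothelium to 0.00663. The 3 markers of the macula densa, Nos1, Ptgs2 and Pappa2, had 0 UMIs in CNT. Havcr1, the injury marker KIM-1, had 3 UMIs in CNT, and the immediate early genes summed to 0.144 in CNT, the lowest of the 17 clusters.

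The remaining lists are read against the shares of all genes, 7.87% higher, 6.37% lower and 85.8% within 2-fold for DCT+CNT, and 6.65%, 7.86% and 85.5% for PC. These shares are of genes with a ratio, while the list sizes also count members without one. Of 16 genes of the NCC and WNK pathway at the floor, 0 were at least 2-fold higher and 4 lower in CNT than in DCT+CNT, and 5 were higher and 0 lower than in PC. Of 15 genes of water transport and vasopressin signalling, 6 were higher and 1 lower than in DCT+CNT, and 0 were higher and 4 lower than in PC. Of 21 secreted factors, 5 were higher and 7 lower than in DCT+CNT, and 5 were higher and 4 lower than in PC. Of 15 other solute carriers, 5 were higher and 4 lower than in DCT+CNT, and 2 were higher and 1 lower than in PC. Of 20 adhesion genes, 4 were higher and 3 lower than in DCT+CNT, and 3 were higher and 3 lower than in PC. Of 10 Wnt pathway genes, 3 had no ratio to DCT+CNT and 4 had none to PC. In this list 2 were higher and 0 lower than in DCT+CNT, and 1 was higher and 0 lower than in PC. Of 13 tight junction genes, 11 were within 2-fold of DCT+CNT and 9 within 2-fold of PC, where 1 and 2 had no ratio. Of 14 p53 targets, 11 were within 2-fold of DCT+CNT, where 2 had no ratio, and 9 of PC. Of 13 mitochondrial transcripts, 11 and 10 were, where 1 and 1 had no ratio.

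The only values split by treatment are those of 2 proximal tubule pools in a second table, scaled apart from the cluster table, with 1 column for Cis9w (8557662 UMIs) and 1 for CT9w (5123727 UMIs). Genes that lead CNT, and other genes named above, were also counted there. Egfem1 had 152 UMIs in the Cis9w pool and 16 in the CT9w pool, a ratio of levels of 5.69 (3.39 to 10.2). Scnn1b had 114 in Cis9w and 21 in CT9w, a ratio of 3.25 (2.03 to 5.45), and Scnn1g had 66 and 13, a ratio of 3.04 (1.66 to 6.01). Slc8a1 had 4046 in Cis9w and 1331 in CT9w, a ratio of 1.82 (1.71 to 1.94). These 4 were higher in the Cis9w pool beyond counting error, although only 1 pool stands for each group. Of the 4, only Egfem1 is among the 15 leading genes.

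Slc2a9 had 374 UMIs in Cis9w and 149 in CT9w, a ratio of 1.5 (1.24 to 1.83), Klk1 had 531 and 230, a ratio of 1.38 (1.18 to 1.62), and S100g 402 and 196, a ratio of 1.23 (1.03 to 1.46). For Trpv5 and Calb1 the interval included 1: Trpv5 had 35 UMIs in Cis9w and 11 in CT9w, a ratio of 1.91 (0.946 to 4.16), and Calb1 had 177 and 108, a ratio of 0.981 (0.768 to 1.26). Of the 15 leading genes, 10 were higher in Cis9w and 5 lower, where 55.4% and 44.6% of 10656 genes at the floor of that table were. An interval that left out 1 was found for 6 of the 15 and for 35.7% of the 10656, and the median log2 ratio was 0.44 for the 15 and 0.04 for the 10656. Of genes of neighbouring segments, Slc12a3 had a ratio of 0.865 (0.790 to 0.947) and Umod one of 0.656 (0.570 to 0.756), both lower in Cis9w, and Aqp2 had 1.12 (0.705 to 1.80). Within the cluster table, the 6 proximal tubule clusters differed in these genes: Slc8a1 was 1.63 in PT-S3-1, 0.754 in PT-injury/repair and 0.184 to 0.424 in the others, and Egfem1 was 0.0421 in PT-S3-1, 0.0415 in PT-injury/repair and at most 0.0154 in the others. The part of free RNA, of nuclei of other segments and of a shift between proximal clusters in these ratios was not tested, and with 1 column a group no spread between animals is known.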

How the data were processed

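Nuclei of 4 samples were measured. The submitters' processing notes list Cell Ranger 5.0.1 and mm10. Not given in the sources used here: clustering, filters, doublet and free RNA treatment, and the number of libraries behind a column. Replicate-2 descriptions refer to the cluster table and replicate-1 descriptions to the proximal tubule table. Per the file headers, the authors deposited 1 average per gene and cluster, a signal in normalised UMIs per nucleus. All of these averages (100%) were whole multiples, within 0.1 UMI, of 1 step per column, which gave the UMI sums. With 1 column per cluster no count test can be fitted. The deposited fold changes and p-values were not used.

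The floor was 0.0107 (the median mean level). Ratios are of averages, with Clopper-Pearson intervals at 95%. As a refinement of the written design, 0 UMIs were set to 3 UMIs only in the lower cluster, and no ratio was given where both clusters had at most 3 UMIs or where the replacement would turn the order (790 genes against DCT+CNT, 1072 against PC). For positions between the neighbours, levels were raised to at least 3 UMIs of CNT (0.00663). Correlations used log2 of the level plus 0.00221. IDs matched GENCODE M21 for 24449 of 24468 genes.

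Named genes are the 15 with the largest ratio to the next cluster, the 8 highest and 8 lowest against DCT+CNT and against PC, the most abundant and extreme members of 36 gene lists, and a set of fixed names. Some genes that this rule names are not reported here. The members, the lists and the alternatives were chosen with earlier results of these data known. Recovery of UMIs and the intervals were tested on simulated data. Python 3.11.15, numpy 2.4.6, pandas 2.3.3, scipy 1.17.1 and matplotlib 3.10.9 were used.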

Additional observations from a re-analysis of the deposited data

How the results depend on the processing

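Of the 65 alternatives run, 37 left the result within its limit and 28 moved it past that limit. A change of direction was defined only for the 16 alternatives of the marker ratios, of which 0 reversed and 15 stayed within the limit. The exception was Slc8a1, whose ratio of CNT to DCT+CNT fell from 1.191 to 1.125 with columns scaled to a median ratio of 1. Counts, correlations and the median of the pools could only stay or move. With the floor at the 75th percentile, 6117 genes remained, so counts fall with the number of genes. There 343 genes were higher and 281 lower in CNT than in DCT+CNT, and 277 higher and 247 lower than in PC. At that floor 2 were highest of all by 2-fold, 45 above both and 50 below both, and r with DCT+CNT was 0.915. Between lay 781 of 919 genes (85.0%), a larger share than the 80.9% reported. At a ratio of at least 4 the counts were 228, 166, 169 and 224, and with the whole interval past 2 they were 220, 148, 73 and 144, with 2 highest of all, 3 above both and 7 below both. Without a floor 9 genes were highest of all, and without DCT+CNT and PC 109 were. Genes between numbered 559 of 621 (90.0%) where the neighbours were 4-fold apart. With columns scaled to a median ratio of 1 they numbered 1516 of 1974 (76.8%). On the 2000 most variable genes r was 0.866 with DCT+CNT and 0.901 with PC. In the proximal tubule pools the median log2 ratio was 0.417 with a pseudocount and the mean was 0.832; the cause was not tested. Calls above and below both neighbours were added after seeing the data. Depth limits genes with under about 20 UMIs in CNT, whose intervals often include 1. No paired analysis was possible because no column carries a replicate number.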

Other observations

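Other CNT genes of high level were not among the markers. Phactr1, a regulator of actin, averaged 19.9 in CNT, against 9.09 in DCT+CNT and 17.2 in PC, and was highest of the 17 clusters. Arl15, a small GTPase, averaged 6.70 in CNT, against 3.21 in DCT+CNT and 4.89 in PC. Slit2, a secreted guidance cue, averaged 4.45 in CNT, 3.22 in DCT+CNT and 2.76 in PC, and Col4a4, a basement membrane collagen chain, 2.89, 2.16 and 2.62. All 4 were highest in CNT, each by less than 2-fold over the next cluster. They were picked from the 30 most abundant CNT genes after their values were seen.

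Keratin and injury genes were also measured. Krt7 averaged 0.192 in CNT, against 0.0732 in DCT+CNT and 0.293 in PC, and Krt18 had 18 UMIs in CNT, 15 in DCT+CNT and 25 in PC. Clu, or clusterin, was highest in CNT at 0.208, against 0.146 in DCT+CNT, 0.157 in PC and 0.0170 to 0.149 in the other 14. Tpm1, a tropomyosin, averaged 0.146 in CNT, 0.0600 in DCT+CNT and 0.467 in PC. Of 15 such genes at the floor, 2 had no ratio to DCT+CNT and 2 had none to PC. Against DCT+CNT, 4 were at least 2-fold higher in CNT (7.87% of all genes were), 1 lower (6.37%) and 8 within 2-fold (85.8%). Against PC, 2 were higher (6.65%), 6 lower (7.86%) and 5 within 2-fold (85.5%).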
